A study of Mus musculus with 2 samples.

Results

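Hilpda-high neutrophils were a set of 513 cells from PyMT-N mouse mammary tumours, chosen for RNA of Hilpda, a gene induced by low oxygen that encodes a protein of the lipid droplet surface. They made up 20.6% (95% interval 19.0 to 22.2%) of the 2491 neutrophils that passed the same gates, 10.2% of the 5020 barcodes of the PyMT-N library, and 4.11% of the 12496 barcodes of the series. Members had at least 200 detected genes, at most 10% mitochondrial unique molecular identifiers (UMIs, each counting 1 captured transcript), at least 50 S100a8 and S100a9 UMIs per 10000 UMIs of the cell, 0 UMIs of the C1q genes, under 5 UMIs of the granule genes Ngp, Camp and Ltf, under 15 per 10000 of the interferon-induced genes Isg15, Ifit1, Ifit2, Ifit3, Rsad2 and Cmpk2, and at least 30 Hilpda UMIs per 10000. They were set against the 1396 cells of the same gates with 0 Hilpda UMIs, called Hilpda-0 neutrophils. A further 582 gated cells lay between these limits.

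The series holds 2 single-cell libraries of CD45+ DAPI- immune cells, 1 from tumours of the PyMT-N line and 1 from tumours of the PyMT-M line, both named for the polyoma middle T oncogene. Mice received line cells by mammary gland injection and, per the labels, their tumours had grown to 0.7 to 1 cm across at collection 4 weeks later, with no treatment named. The labels do not explain the letters N and M, the age of the mice or how many animals entered each library. Since each line has 1 library, no statistical test was made, nothing is checked by replication, and every interval is a 95% interval of counting error only.

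Cells short of oxygen stabilise the transcription factor HIF-1alpha, which pairs with ARNT and binds short DNA elements near its target genes. Those targets raise sugar uptake and glycolysis, lower the use of mitochondria, induce vessel growth factors and include the prolyl hydroxylases that mark HIF-1alpha for degradation when oxygen returns. Neutrophils are short-lived phagocytes that live largely on glycolysis, and in tumours they can lie in poorly perfused regions, where HIF-1alpha is known to prolong their survival.

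The number of Hilpda UMIs chose the members and is given as a description. Members held 3 to 93 Hilpda UMIs per cell, with a median of 13. Per 10000 UMIs of the cell, Hilpda ranged from 30.03 to 543 with a median of 59.4 and quartiles of 43.2 and 96.0. The distribution was continuous across the threshold, as the histogram of Hilpda levels shows, and the highest cell below it had 29.95 per 10000. The 52 cells just inside, at 30 to 35 per 10000, held 171 UMIs of a hypoxia-induced gene list per 10000, and the 60 cells just outside, at 25 to 30, held 146. For Bnip3 the levels were 17.2 per 10000 just inside and 16.4 just outside, and for Hcar2 they were 14.0 just inside and 17.3 just outside. A glycolysis gene list held 289 per 10000 just inside and 240 just outside. The levels of Bnip3 and Hcar2 thus overlapped across the threshold, while both summed lists were higher just inside it.

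**Figure D1:**
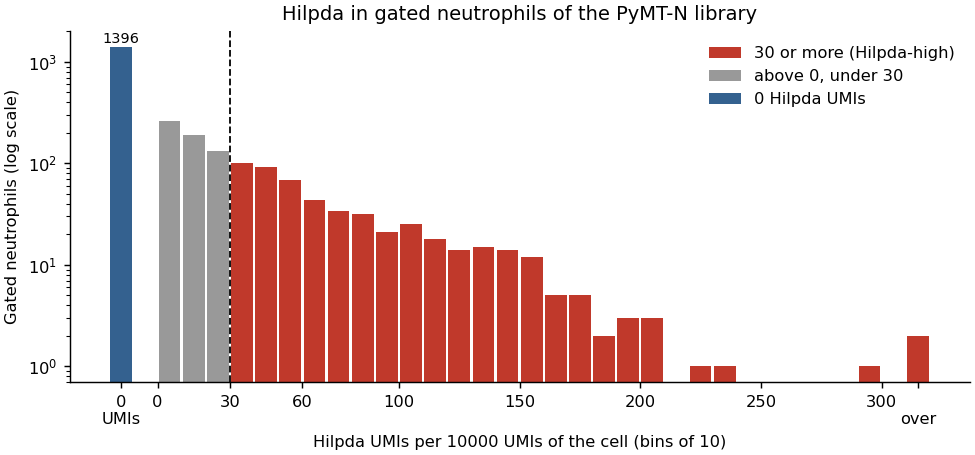
Number of gated PyMT-N neutrophils (y axis, log scale) by Hilpda UMIs per 10000 UMIs of the cell (x axis, bins of 10), with the 1396 cells without a Hilpda UMI as a bar of their own and the dashed line at the threshold of 30. The 513 cells at or above the threshold form the upper tail of a continuous distribution.

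Depth and RNA quality moved with the groups, and their part in the results was not tested. Hilpda-high neutrophils held 1119371 UMIs in all, with a median of 1789 per cell (516 to 10687), and Hilpda-0 neutrophils held 2690721, with a median of 1665 (506 to 10815). After thinning each cell to 1000 UMIs, the median number of genes was 464 in 486 Hilpda-high cells and 543 in 1301 Hilpda-0 cells, so the members' RNA was spread over fewer genes. The median mitochondrial share was 0.559% in Hilpda-high and 0.898% in Hilpda-0 neutrophils. A doublet caller, Scrublet, marked 0 cells at its automatic threshold, and among the 202 barcodes of highest score were 5.07% of Hilpda-high and 2.22% of Hilpda-0 neutrophils. The libraries shared 60 barcode sequences, 2 of them among the Hilpda-high and 10 among the Hilpda-0 neutrophils of PyMT-N.

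The members carried neutrophil RNA, which for S100a8 and S100a9 was set by the gates. Of 13 neutrophil marker genes, the 11 outside the gates were each detected in the members, which a pool of this depth makes likely for any expressed gene. They summed to 98.5 UMIs per 10000 in Hilpda-high and 119 in Hilpda-0 neutrophils. Csf3r, the receptor of granulocyte colony-stimulating factor, had 895 CPM (counts per 1000000 UMIs of the group) in Hilpda-high and 1322 CPM in Hilpda-0 neutrophils. Summed markers of macrophages and monocytes had log2 ratios of -0.38 and -0.89, Hilpda-high over Hilpda-0. The median log2 ratio of all genes with at least 50 UMIs over both groups was -0.37. The macrophage sum thus lay near the typical gene, and the monocyte sum below it. The 14 macrophage markers, whose C1q genes are 0 by the gate, summed to 7.12 per 10000 in Hilpda-high and 9.25 in Hilpda-0 neutrophils. The 10 monocyte markers summed to 3.98 per 10000 in Hilpda-high and 7.38 in Hilpda-0 neutrophils, and 10 T cell markers to 0.277 in Hilpda-high and 0.457 in Hilpda-0 neutrophils. Among eosinophil markers, the granule genes Epx, Prg2 and Prg3 were at 0 UMIs in both groups, and 8 of 9 mast cell and basophil markers were also at 0 in both. Of 10 markers each, 9 NK cell, 8 B cell, 8 dendritic cell, 7 fibroblast and 7 endothelial cell genes had 0 UMIs in the members, as had 8 of 8 erythroid genes. Per 10000, NK cell markers summed to 0.125 in Hilpda-high and 0.219 in Hilpda-0 neutrophils, B cell markers to 0.054 and 0.316. In the same order, dendritic cell markers summed to 0.786 and 1.91, fibroblast markers to 0.045 and 0.026, and endothelial cell markers to 0.107 and 0.063. The fibroblast sums rest on 5 and 7 UMIs, the endothelial sums on 12 and 17. Platelet markers, with 13 UMIs in either group, summed to 0.116 per 10000 in Hilpda-high and 0.048 in Hilpda-0 neutrophils. Of the 10 epithelial or tumour cell markers, 5 were at 0 in the members, and the list's 12.1 per 10000 in Hilpda-high against 13.2 in Hilpda-0 neutrophils came almost entirely from Lcn2, which neutrophils also express.

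Both further markers of the set, Bnip3 and Hcar2, were higher in the members. The gates did not use them, but they were named as markers with earlier results of these data known, so their values are a description. Bnip3 (ENSMUSG00000078566, chr7:138890836-138909519 of GRCm38, minus strand), a receptor that sends mitochondria to autophagy, had 2544 CPM in Hilpda-high and 429 CPM in Hilpda-0 neutrophils, a log2 ratio of 2.57 (2.47 to 2.67). After thinning to 1000 UMIs, 82.9% of Hilpda-high and 28.7% of Hilpda-0 neutrophils held a Bnip3 UMI, against 3.61% of 166 T cells of the same library taken as background (median depth before thinning 3072.5 UMIs). Hcar2 (ENSMUSG00000045502, chr5:123863570-123865499, minus strand), a receptor for beta-hydroxybutyrate and niacin, had 2165 CPM in Hilpda-high and 593 CPM in Hilpda-0 neutrophils, a log2 ratio of 1.87 (1.78 to 1.96). Its UMIs were seen in 72.2% of thinned Hilpda-high and 29.1% of thinned Hilpda-0 neutrophils, and in 1.20% of T cells. A minority of Hilpda-0 neutrophils thus carried each RNA, at shares above those of T cells. For Hilpda itself that background was 6.02% of T cells (2.93 to 10.8%).

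The promoters of 5 genes are shown with the letters at which the factor is known to bind, where they hold any. The core letters ACGTG or GCGTG were searched on both strands, where both reverse to CACGT and CACGC and may overlap as CACGTG, in windows of 250 bases before to 50 after each gene start (RefSeq, GRCm38.p6). One or the other stood in 43.8% of all 32851 windows, and in 28 of 34 windows (82.4%) of the hypoxia-induced genes. It also stood in 12 of 18 windows (66.7%) of the 15 genes named further on as highest, of which Gpnmb had 0 matches. Matches are in capitals, each sequence reads along its gene's strand, and the windows are shown for Hilpda, which defines the cells (chr6:29272376-29272675, plus strand), for its companion Bnip3 (chr7:138909457-138909756, minus strand), for the strongest list member Adm (chr7:110627407-110627706, plus strand), and for the immune checkpoint genes Cd274 (chr19:29367188-29367487, plus strand) and Pdcd1lg2 (chr19:29410669-29410968, plus strand).
Hilpda: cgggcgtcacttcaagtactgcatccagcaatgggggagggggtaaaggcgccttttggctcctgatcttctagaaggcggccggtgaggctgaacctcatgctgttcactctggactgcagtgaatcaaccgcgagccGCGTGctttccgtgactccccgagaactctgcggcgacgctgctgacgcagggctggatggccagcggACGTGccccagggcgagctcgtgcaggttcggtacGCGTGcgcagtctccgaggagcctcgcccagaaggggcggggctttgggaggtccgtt
Bnip3: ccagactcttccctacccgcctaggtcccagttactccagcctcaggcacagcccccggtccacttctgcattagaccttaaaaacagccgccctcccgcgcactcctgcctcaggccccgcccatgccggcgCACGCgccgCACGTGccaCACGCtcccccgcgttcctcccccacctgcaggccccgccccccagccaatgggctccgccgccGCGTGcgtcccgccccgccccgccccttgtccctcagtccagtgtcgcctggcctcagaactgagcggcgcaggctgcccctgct
Adm: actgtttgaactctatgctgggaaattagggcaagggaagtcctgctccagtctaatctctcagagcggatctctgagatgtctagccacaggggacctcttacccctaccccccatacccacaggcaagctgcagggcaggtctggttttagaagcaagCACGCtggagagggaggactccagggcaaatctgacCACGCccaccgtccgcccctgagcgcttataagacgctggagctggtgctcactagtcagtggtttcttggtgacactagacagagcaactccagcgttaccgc
Cd274: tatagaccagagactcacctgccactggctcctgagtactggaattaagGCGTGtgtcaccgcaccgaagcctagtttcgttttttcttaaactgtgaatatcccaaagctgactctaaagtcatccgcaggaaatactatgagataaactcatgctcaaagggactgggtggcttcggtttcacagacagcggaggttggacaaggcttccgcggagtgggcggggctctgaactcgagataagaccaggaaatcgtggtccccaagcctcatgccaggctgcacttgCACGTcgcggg
Pdcd1lg2: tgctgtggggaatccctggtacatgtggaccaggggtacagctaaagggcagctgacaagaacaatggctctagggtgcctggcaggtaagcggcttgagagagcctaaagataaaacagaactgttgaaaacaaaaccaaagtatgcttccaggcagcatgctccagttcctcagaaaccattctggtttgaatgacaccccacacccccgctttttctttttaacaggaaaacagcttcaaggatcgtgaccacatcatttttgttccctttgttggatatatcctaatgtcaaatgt
The Hilpda window shown held 3 matches, and a second, overlapping Hilpda window (chr6:29272238-29272537) held 1. There were 5 in the Bnip3 window, 2 each in the Adm and Cd274 windows, and 0 in the Pdcd1lg2 window. Hcar2 has no window in the table used. A match is a stretch of letters only, and binding was not measured.

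Across all genes, the members differed from Hilpda-0 neutrophils more often by lower than by higher levels on the scale of total UMIs. Of 5372 genes with at least 50 UMIs over both groups, and leaving out the genes of the gates, 369 (6.87%) were at least 2-fold higher and 949 (17.7%) at least 2-fold lower in Hilpda-high neutrophils. These words, higher and lower, are used of genes only past that limit, on log2 ratios of CPM with a pseudocount of 1 CPM. A gene can reach the minimum of 50 UMIs through 1 group alone, so these counts are partly set by that minimum. The balance depends on the scale. The ferritin genes Fth1 and Ftl1 took 11.5% of UMIs in Hilpda-high and 3.43% in Hilpda-0 neutrophils, and the median log2 ratio of all measured genes was -0.37. A median-ratio scaling, which removes a shift of -0.34, gave 585 higher (10.9%) and 439 lower genes (8.17%), and moved the share of higher genes among those past 2-fold to 57.1%, against 28.0% on total UMIs. The log2 ratios of single genes are therefore about 0.34 larger relative to the typical gene, and genes that are lower by less than about that much beyond 2-fold on total UMIs are within 2-fold on the median-ratio scale. Counts of list members are given on both scales, and are to be read beside 6.87% higher and 17.7% lower of all genes on total UMIs, and 10.9% higher and 8.17% lower on the median-ratio scale.

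The genes of the hypoxia response were the group that stood highest. Of 30 listed genes other than Hilpda, 24 were measured, and 23 of these were higher in Hilpda-high neutrophils and 0 lower, on either scale, beside 6.87% of all genes higher. Their median log2 ratio was 2.21, or 2.55 relative to the typical gene, beside -0.37 for all measured genes. Summed over the list, Hilpda-high neutrophils held 215 UMIs per 10000 (212 to 218) and Hilpda-0 neutrophils 55.1 (54.2 to 56.0). The member past no limit was Mxi1, a MYC antagonist, at a log2 ratio of 0.61. Car9 and Stc2 had 0 UMIs in the members.

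The most raised member was Adm, which encodes the vasodilator adrenomedullin. It had 118 CPM in Hilpda-high and 3.72 CPM in Hilpda-0 neutrophils, a log2 ratio of 4.66 (4.06 to 6.08), from 63 Hilpda-high and 4 Hilpda-0 cells. Ero1l, an oxidase that forms disulphide bonds in the endoplasmic reticulum, had 2044 CPM in Hilpda-high and 236 CPM in Hilpda-0 neutrophils (log2 ratio 3.11). Vegfa, the main growth factor of blood vessels, had 371 CPM in Hilpda-high and 54.3 CPM in Hilpda-0 neutrophils (log2 ratio 2.75). Adm was thus carried by few members, whereas Ero1l was seen in 437 of the 513 (73.7% of thinned Hilpda-high and 17.1% of thinned Hilpda-0 cells, and 7.23% of T cells). Mif, an inflammatory cytokine, had 5292 CPM in Hilpda-high and 2057 CPM in Hilpda-0 neutrophils, a log2 ratio of 1.36. Among mitochondrial proteins of the response, log2 ratios were 2.64 for Fam162a and 2.39 for Higd1a, and 2.24 for the mitophagy receptor Bnip3l.

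Of the oxygen sensing machinery, the feedback genes were higher and the factor itself was not past 2-fold. Egln3, a prolyl hydroxylase, had 677 CPM in Hilpda-high and 146 CPM in Hilpda-0 neutrophils (log2 ratio 2.20). Its relative Egln1 had a log2 ratio of 1.96, and Vhl, which recruits the ligase that degrades HIF-1alpha, had 1.20. Hif1a had 257 CPM in Hilpda-high and 167 CPM in Hilpda-0 neutrophils, a log2 ratio of 0.62. Arnt was at 0.49 and Egln2 at 0.04, while Epas1, the gene of HIF-2alpha, had 0 UMIs in the members. In all, 3 of 7 measured genes of this list were higher and 0 lower on either scale, and Egln1 and Egln3 are also in the hypoxia-induced list.

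Most genes of glycolysis were higher. Of 20 genes, 15 were higher and 1 lower on total UMIs, and 18 were higher and 1 lower on the median-ratio scale, with a median log2 ratio of 1.46 (1.80 relative to the typical gene). Summed levels were 346 UMIs per 10000 (342 to 349) in Hilpda-high and 134 (133 to 135) in Hilpda-0 neutrophils. The glucose transporter gene Slc2a1 had 504 CPM in Hilpda-high and 204 CPM in Hilpda-0 neutrophils, and the hexokinase gene Hk2 had 335 CPM in Hilpda-high and 92.2 CPM in Hilpda-0 neutrophils. The largest log2 ratio of the list was 2.04, for Pfkp, the platelet-type phosphofructokinase. Pfkfb3, whose product makes the activator of phosphofructokinase, had 427 CPM in Hilpda-high and 106 CPM in Hilpda-0 neutrophils. Gapdh had 11666 CPM in Hilpda-high and 4231 CPM in Hilpda-0 neutrophils, a log2 ratio of 1.46, and Ldha, which turns pyruvate into lactate, had a log2 ratio of 1.69. Gapdh and Fth1 have processed pseudogenes, and the labels do not say how reads were shared among copies. The lower gene was Pfkfb4 at a log2 ratio of -1.49, with 30.4 CPM in Hilpda-high and 87.3 CPM in Hilpda-0 neutrophils. Within 2-fold on total UMIs were the enolase gene Eno1 at 0.99, the pyruvate kinase gene Pkm at 0.82 and the lactate exporter Slc16a3 at 0.51.

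Nuclear genes of oxidative phosphorylation lay on the other side, by less. Of 53 genes, 0 were higher and 17 lower on total UMIs, beside 17.7% of all genes lower, with a median log2 ratio of -0.74. The count of lower genes depends on the scale, since 1 was lower and 1 higher with median-ratio scaling, where the median was -0.41. Summed levels were 130 UMIs per 10000 in Hilpda-high and 196 in Hilpda-0 neutrophils. The ATP synthase subunit gene Atp5g1 had a log2 ratio of -1.39 and the complex I gene Ndufs5 one of -1.31. Ndufv3 of complex I at 0.80 and the cytochrome c gene Cycs at 0.41 were the genes with positive values. The 12 measured mitochondrial-encoded genes had a median of -0.63, with mt-Nd3 lower at -1.20 on total UMIs and 0 lower with median-ratio scaling.

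**Figure D2:**
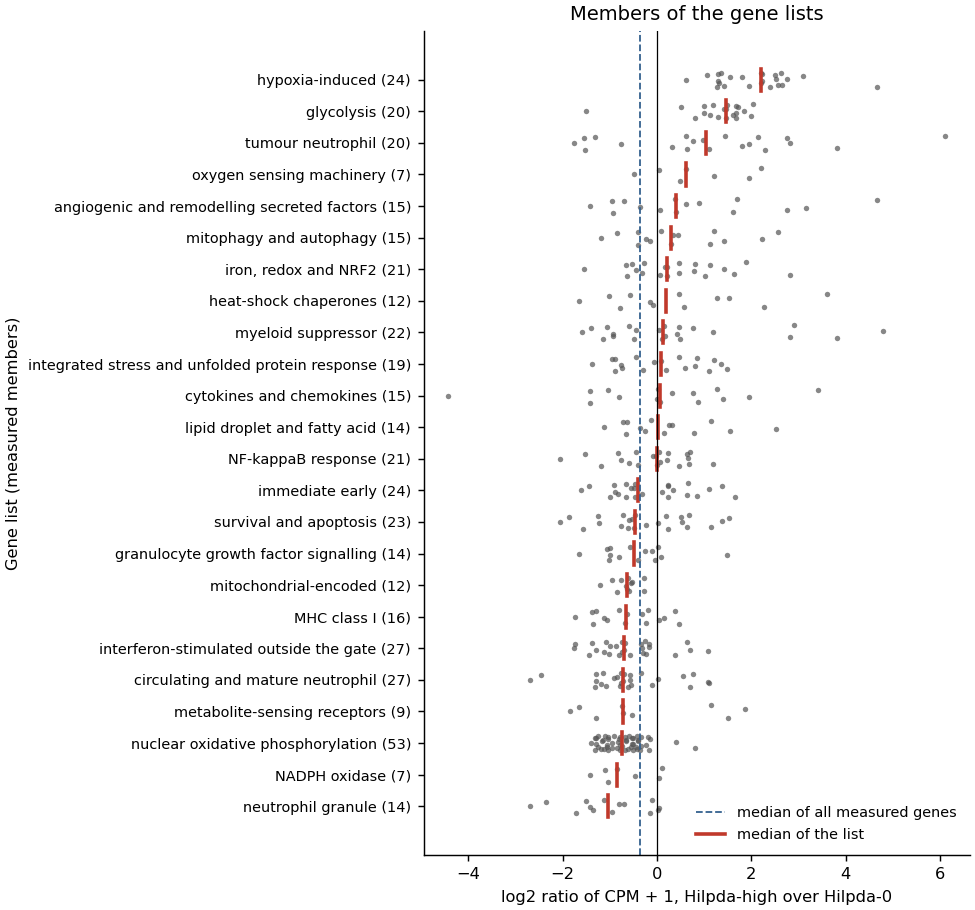
Log2 ratios of CPM + 1 (x axis, Hilpda-high over Hilpda-0 neutrophils) of the measured members of 24 gene lists (y axis, number of members in brackets), with each list's median in red and the median of all measured genes, -0.37, as a dashed line. Hypoxia-induced (median 2.21) and glycolysis (1.46) genes lie farthest to the right, granule genes (-1.04) farthest to the left, and the medians of the lipid droplet, cytokine, NF-kappaB and heat-shock lists lie near 0 and change sign under some alternative settings.

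Cell by cell, the shift was one of nearly the whole group. In cells thinned to 1000 UMIs, the hypoxia-induced list had a median of 22 UMIs in Hilpda-high (1 to 75) and 5 in Hilpda-0 neutrophils (0 to 35). Of the Hilpda-high cells, 97.3% lay above the Hilpda-0 median, and 13 of 1301 Hilpda-0 cells (0.999%) reached the Hilpda-high median. For glycolysis the medians were 35 UMIs in Hilpda-high and 11 in Hilpda-0 neutrophils, and 42 Hilpda-0 cells (3.23%) reached the Hilpda-high median. Oxidative phosphorylation overlapped more, with medians of 12 UMIs in Hilpda-high and 18 in Hilpda-0 cells. The ranges of both groups overlapped for each of these lists, as the plot of cells by list UMIs shows.

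**Figure D3:**
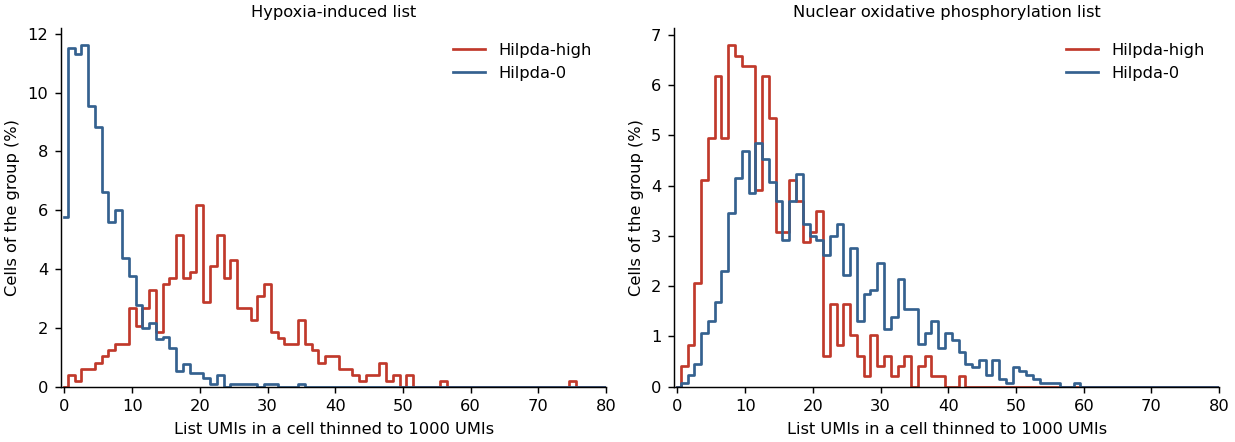
Share of cells (y axis, percent of the group) by the number of UMIs of the hypoxia-induced list without Hilpda (left) and of the nuclear oxidative phosphorylation list (right) in cells thinned to 1000 UMIs (x axis), for 486 Hilpda-high and 1301 Hilpda-0 neutrophils. The hypoxia-induced medians are 22 UMIs in Hilpda-high and 5 in Hilpda-0 cells with little overlap, and the oxidative phosphorylation medians are 12 in Hilpda-high and 18 in Hilpda-0 cells with wide overlap.

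Lipid storage genes were split. Plin2, the main coat protein of lipid droplets, had 1594 CPM in Hilpda-high and 275 CPM in Hilpda-0 neutrophils, a log2 ratio of 2.53 (2.41 to 2.66). A second coat protein gene, Plin3, was higher at 1.56, as was Abhd5, the activator of the lipase ATGL, at 1.15. Pnpla2, the gene of that lipase, was at 0.33, and G0s2, like HILPDA an inhibitor of it, at -0.71, with 1677 CPM in Hilpda-high and 2742 CPM in Hilpda-0 neutrophils. Acsl5, a fatty acid activating enzyme, was lower at -1.11 on total UMIs. Of 14 measured genes 3 were higher and 1 lower on total UMIs, and 4 higher and 0 lower with median-ratio scaling, with a median of 0.02 that changed sign under several alternatives. Cd36, Fabp4 and Lpl had 0 UMIs in the members.

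In the mitophagy and autophagy list, 5 of 15 genes were higher and 1 lower, and 5 higher and 0 lower with median-ratio scaling. Beside Bnip3 and Bnip3l these were Optn at 1.41, Atg12 at 1.20 and the cargo receptor gene Sqstm1 at 1.13, and the lower gene was the hypoxia-linked mitophagy receptor Fundc1 at -1.18. Among receptors for metabolites, 3 of 9 were higher, Hcar2, the nucleotide receptor P2ry2, with 61.6 CPM in Hilpda-high and 21.2 CPM in Hilpda-0 neutrophils, and P2rx4 at 1.15. The proton sensor Gpr65 (-1.85), the acetate receptor Ffar2 (-1.65) and the adenosine receptor Adora3 (-1.30) were lower, with 6 to 10 UMIs each in Hilpda-high and 57 to 81 in Hilpda-0 neutrophils, and with median-ratio scaling 3 of the list were higher and 2 lower. Hcar1, the lactate receptor, and the succinate receptor Sucnr1 had 0 UMIs in both groups.

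Ferritin genes were higher and took a large part of the RNA. Fth1, the ferritin heavy chain, took 8.23% of all UMIs in Hilpda-high and 2.22% in Hilpda-0 neutrophils, a log2 ratio of 1.89, and Ftl1, the light chain, had a log2 ratio of 1.41. Hmox1, the haem-degrading enzyme that releases iron, had 1090 CPM in Hilpda-high and 154 CPM in Hilpda-0 neutrophils, a log2 ratio of 2.82 (2.66 to 2.99). Srxn1 at 1.64, Sqstm1 at 1.13 and Prdx6 at 1.03 were also higher, whereas the glutathione peroxidase gene Gpx1 was lower at -1.54, with 818 CPM in Hilpda-high and 2385 CPM in Hilpda-0 neutrophils. In all, 6 of 21 genes of iron, redox and NRF2 function were higher and 1 lower, or 8 higher and 1 lower with median-ratio scaling, with a median of 0.22, while their summed level, carried by ferritin, was 1233 per 10000 in Hilpda-high and 423 in Hilpda-0 neutrophils. The iron exporter Slc40a1 had a log2 ratio of -0.27 and the transferrin receptor Tfrc one of 0.78, both within 2-fold.

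The genes with the largest differences included a pair of immune checkpoint ligands. The 15 genes named as highest were ranked by the interval end nearest to no difference, and are Gpnmb, Fam71f2, Tst, Pdcd1lg2, Nceh1, Adm, Echdc3, Fam221a, Gpsm1, Ccdc126, Cd274, F10, Mreg, Cxcl3 and Ifrd1. Pdcd1lg2 (chr19:29410919-29471161), which encodes the PD-1 ligand PD-L2, had 286 CPM in Hilpda-high and 9.29 CPM in Hilpda-0 neutrophils, a log2 ratio of 4.80 (4.36 to 5.59). Cd274 (chr19:29367455-29388095), which encodes the ligand PD-L1, had 407 CPM in Hilpda-high and 27.9 CPM in Hilpda-0 neutrophils, a log2 ratio of 3.82 (3.51 to 4.24). These genes lie next to each other, and of their promoter windows, printed earlier, that of Cd274 held 2 matches and that of Pdcd1lg2 0. After thinning, Cd274 was seen in 27.6% of Hilpda-high neutrophils, in 26 of 1301 Hilpda-0 neutrophils and in 1.20% of T cells. Pdcd1lg2 was seen in 22.8% of Hilpda-high neutrophils, 0.692% of Hilpda-0 neutrophils and 4.82% of T cells. Neither ligand was therefore detected in most members at this depth.

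Several of these genes came from few cells. Gpnmb, a glycoprotein of lysosomes also made by lipid-laden macrophages, had 133 UMIs from 38 Hilpda-high cells and 2 UMIs from 1 Hilpda-0 cell, a ratio of 160 with a log2 interval of 5.44 to 10.38. Without the cells of highest Scrublet score its log2 ratio was 6.20, against 6.10 with them. Cxcl3, a chemokine that attracts neutrophils, had 605 CPM in Hilpda-high and 55.7 CPM in Hilpda-0 neutrophils, a log2 ratio of 3.42, with its UMIs in 58 Hilpda-high and 29 Hilpda-0 cells. The single highest member had 489 Cxcl3 UMIs per 10000, and without the cells of highest Scrublet score the log2 ratio was 4.12. More evenly spread were F10, the coagulation factor X gene, with 608 CPM in Hilpda-high and 47.9 CPM in Hilpda-0 neutrophils, and Ifrd1, a transcriptional co-regulator, with 865 CPM in Hilpda-high and 92.2 CPM in Hilpda-0 neutrophils. F10 was seen in 38.3% of thinned Hilpda-high and 3.84% of thinned Hilpda-0 neutrophils and in 0.602% of T cells.

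The other leading genes had roles in metabolism and membranes. Tst, the mitochondrial sulphur transferase rhodanese, had 132 CPM in Hilpda-high and 2.97 CPM in Hilpda-0 neutrophils (log2 ratio 5.07), and Nceh1, a cholesterol ester hydrolase, had 113 CPM in Hilpda-high and 2.97 CPM in Hilpda-0 neutrophils (4.85). Echdc3, an enoyl-CoA hydratase-like gene, had 58.1 CPM in Hilpda-high and 1.49 CPM in Hilpda-0 neutrophils (4.57). Gpsm1, a regulator of G protein signalling, had 50.9 CPM in Hilpda-high and 1.49 CPM in Hilpda-0 neutrophils (4.38), or 3.14 in thinned cells. Mreg, which acts in melanosome and lysosome transport, had 117 CPM in Hilpda-high and 7.06 CPM in Hilpda-0 neutrophils (3.87). All of these genes were near the detection limit in Hilpda-0 neutrophils, where 4 to 19 UMIs stood behind each value. With a pseudocount of 10 CPM the log2 ratios of these 5 genes lay between 2.41 for Gpsm1 and 3.45 for Tst.

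Some of the leading genes lie on chromosome 6. The share of all measured genes on that chromosome was not counted, so no excess is read from this. Hilpda (ENSMUSG00000043421) spans chr6:29272488-29275446 on the plus strand, and Fam71f2 begins 4147 bases past its end on the same strand. Fam71f2 had 63 UMIs from 55 Hilpda-high cells and 1 UMI from 1 Hilpda-0 cell, a log2 ratio of 5.38 (4.71 to 12.57). The next gene, Fam71f1, had 0 UMIs in both groups. Reads that run past the end of Hilpda cannot be told apart here from Fam71f2 transcripts, and because Hilpda counts chose the cells, the value for Fam71f2 is a description. Farther along the same chromosome, Ccdc126 had 471 CPM in Hilpda-high and 30.5 CPM in Hilpda-0 neutrophils (log2 ratio 3.91), and Fam221a, 26157 bases beyond it, had 141 CPM in Hilpda-high and 6.69 CPM in Hilpda-0 neutrophils (4.21). Gpnmb lies on the same stretch (chr6:49036546-49070929), and Fam221a ends at base 49390539. Between Gpnmb and Ccdc126, Malsu1 had a log2 ratio of 0.23, Tra2a was higher at 1.59, and Igf2bp3 had 1 UMI in each group.

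**Figure D4:**
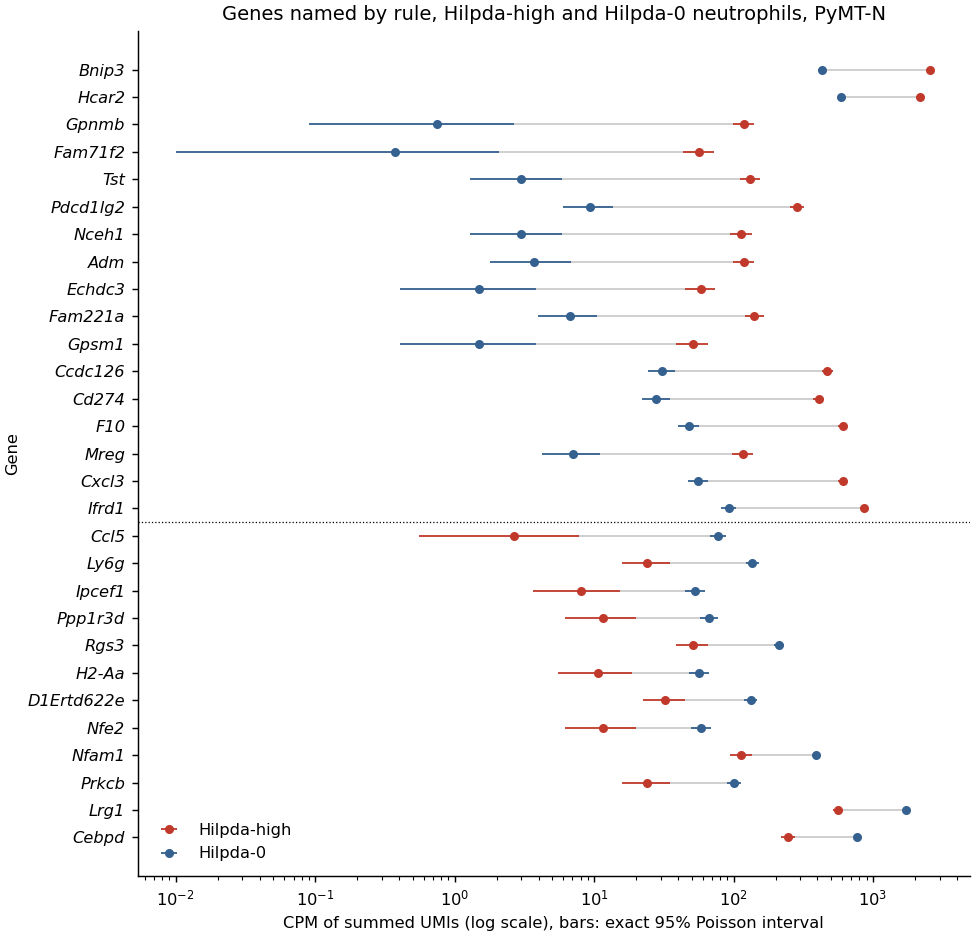
CPM of summed UMIs (x axis, log scale) in Hilpda-high (red) and Hilpda-0 (blue) neutrophils for Bnip3, Hcar2, the 15 genes named as higher and, under the dotted line, the 12 named as lower (y axis), with exact 95% Poisson intervals. The intervals of the groups do not overlap for any gene shown, which the ranking by interval ends favours for the 15 and 12 named genes. The widest intervals belong to genes with few UMIs, such as Fam71f2 with 1 UMI in Hilpda-0 neutrophils.

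Inflammatory messengers moved in both directions. Cxcl2, a chemokine that attracts neutrophils through CXCR2, had 15142 CPM in Hilpda-high and 5691 CPM in Hilpda-0 neutrophils, a log2 ratio of 1.41 (1.38 to 1.44). Ccl3 was higher at 1.95 and Il1rn, the interleukin-1 receptor antagonist, at 1.28. Il1b went the other way, with 5582 CPM in Hilpda-high and 11455 CPM in Hilpda-0 neutrophils, a log2 ratio of -1.04 that was -0.70 with median-ratio scaling, where it was no longer past 2-fold. After thinning, Il1b was seen in 68.3% of Hilpda-high, 97.8% of Hilpda-0 neutrophils and 3.61% of T cells. Osm at -1.43 and Ccl6 at -1.41 were also lower, and Tnf at 0.00 and Ccl2 at 0.01 did not differ beyond counting error. Of 15 cytokine genes 4 were higher and 4 lower on total UMIs, and 6 higher and 3 lower with median-ratio scaling, with a median of 0.06. NF-kappaB response genes were centred on 0.00, with 1 of 21 higher and 3 lower on total UMIs, and 3 higher and 2 lower with median-ratio scaling.

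Secreted factors that act on vessels and matrix were led by Adm and Vegfa. The activin subunit gene Inhba was higher at 3.17, from 27 Hilpda-high and 12 Hilpda-0 cells, as were Prok2, a vessel growth factor of myeloid cells, at 1.71 and Thbs1, which inhibits vessel growth, at 1.62. The gelatinase gene Mmp9 had 268 CPM in Hilpda-high and 520 CPM in Hilpda-0 neutrophils, a log2 ratio of -0.95. Of 15 measured genes 5 were higher and 1 lower on total UMIs, and 6 higher and 1 lower with median-ratio scaling.

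Genes linked to tumour neutrophils were more often higher than lower. In that list, 10 of 20 genes were higher and 4 lower on total UMIs, and 12 higher and 3 lower with median-ratio scaling, with a median of 1.04 (1.37 relative to the typical gene). The list shares Gpnmb, Cd274, Vegfa and Hmox1 with groups described above. The cathepsin inhibitor gene Cstb had 2976 CPM in Hilpda-high and 610 CPM in Hilpda-0 neutrophils (log2 ratio 2.28), and Lgals3, a galactose-binding lectin, had 1517 CPM in Hilpda-high and 341 CPM in Hilpda-0 neutrophils (2.15). Tnfrsf23, a decoy receptor for TRAIL, was higher at 1.81 and the lysosomal protease gene Ctsb at 1.44. Siglecf, a sialic acid receptor of eosinophils that also marks some tumour neutrophils, was lower, with 51.8 CPM in Hilpda-high and 151 CPM in Hilpda-0 neutrophils (log2 ratio -1.52). Ltc4s (-1.75) and Ptgs1 (-1.55) were lower as well, so the list did not move as a block.

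Among genes of circulating and mature neutrophils, which direction was more common depended on the scale. Of 27 genes, 2 were higher and 8 lower on total UMIs, and 4 were higher and 2 lower with median-ratio scaling, with a median of -0.71 on total UMIs and -0.37 relative to the typical gene. The shares of all genes were 6.87% higher and 17.7% lower on total UMIs, and 10.9% higher and 8.17% lower with median-ratio scaling, so the counts on that scale lie near those of all genes. Ly6g, the surface antigen used to define mouse neutrophils, had 24.1 CPM in Hilpda-high and 136 CPM in Hilpda-0 neutrophils, a log2 ratio of -2.45 (-3.12 to -1.93). Cxcr2, the receptor of Cxcl2, had 306 CPM in Hilpda-high and 644 CPM in Hilpda-0 neutrophils (log2 ratio -1.07). Retnlg had 2290 CPM in Hilpda-high and 3356 CPM in Hilpda-0 neutrophils, but after thinning it was seen in 44.9% of Hilpda-high and 34.7% of Hilpda-0 cells, so no order is read from it. The decoy receptor gene Il1r2 at 0.77 and Mxd1 at 0.71 were within 2-fold.

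Among granule genes outside the gates, lower values were the more common. Of 14 measured genes, 0 were higher and 7 lower, and 6 were lower with median-ratio scaling, with a median of -1.04 (-0.70 relative to the typical gene). Cd177, a surface partner of granule proteinase 3, was at -2.70, with 3.57 CPM in Hilpda-high and 28.6 CPM in Hilpda-0 neutrophils. Lyz2, lysozyme, had 301 CPM in Hilpda-high and 853 CPM in Hilpda-0 neutrophils (log2 ratio -1.50), and the peptidoglycan receptor gene Pglyrp1 was at -1.35. The other 7 were within 2-fold, with Mmp8 at -0.69, Lcn2 at -0.11 and Slpi at 0.02 among them, and the sign of Lcn2 changed with the scaling. The gate genes Ngp, Camp and Ltf were capped in both groups and are not counted. Of the 7 NADPH oxidase genes, which make the respiratory burst, 3 were lower, among them Cybb (-1.43) and Rac2 (-1.09), and 0 higher. With median-ratio scaling 1 of these was lower, and Cybb had 10.7 CPM in Hilpda-high and 30.5 CPM in Hilpda-0 neutrophils.

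Among genes associated with suppressor activity of myeloid cells, 5 of 22 were higher and 4 lower on total UMIs, the lower count near the 17.7% of all genes. With median-ratio scaling 6 were higher and 2 lower. Beside Pdcd1lg2, Cd274 and Hmox1, the higher genes on total UMIs were Nos2, inducible nitric oxide synthase, with 306 CPM in Hilpda-high and 40.1 CPM in Hilpda-0 neutrophils (log2 ratio 2.90), and the lectin receptor gene Clec4d at 1.19. Arg2, the mitochondrial arginase, was at 0.77. Wfdc17 was lower on total UMIs, with 3893 CPM in Hilpda-high and 10295 CPM in Hilpda-0 neutrophils (log2 ratio -1.40), as were Myd88 (-1.59), Il4ra (-1.14) and Socs3 (-1.06), of which Il4ra and Socs3 are within 2-fold on the median-ratio scale. Calprotectin RNA, which the gates used and is given as a description, took 6.66% of UMIs in Hilpda-high and 10.1% in Hilpda-0 neutrophils.

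Interferon-stimulated and class I presentation genes had medians below that of all genes. Outside the interferon gate, which capped that response in both groups, 1 of 27 genes was higher and 8 were lower, beside 17.7% of all genes lower, with a median of -0.70. With median-ratio scaling 2 were higher and 4 lower, beside 8.17% of all genes lower, with a median of -0.37. Ifitm1 had 7321 CPM in Hilpda-high and 13399 CPM in Hilpda-0 neutrophils, a log2 ratio of -0.87, and the transcription factor gene Irf1 was at -1.74. Cxcl10 had 16 UMIs in Hilpda-high and 4 in Hilpda-0 neutrophils, a log2 ratio of 2.62 that was -0.27 without the interferon gate. For class I, 0 of 16 genes were higher and 6 lower, the immunoproteasome genes Psmb8, Psmb9, Psmb10 and Psme2 and the peptide transporter genes Tap1 and Tap2, at -1.06 to -1.73. With median-ratio scaling 3 were lower. The light chain gene B2m had a log2 ratio of -0.18, and its sign changed with that scaling.

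Stress and survival genes showed no common direction. Of 12 heat-shock chaperones 4 were higher, Hspa1b (3.60), Hspa1a (2.26), Hsp90aa1 (1.53) and Hspa9 (1.27), and 2 lower, or 1 lower with median-ratio scaling. Hspa1a and Hspa1b are near-identical copies whose reads may be exchanged, and Hspa1b came from 19 Hilpda-high and 6 Hilpda-0 cells. In the integrated stress and unfolded protein response 4 of 19 were higher and 1 lower on total UMIs, and 6 higher and 1 lower with median-ratio scaling, with Ddit3 at 1.48, the amino acid carrier gene Slc3a2 at 1.36 and Atf4 at 1.20. Among 24 immediate early genes 3 were higher and 2 lower on total UMIs, and 5 higher and 2 lower with median-ratio scaling, with Ier3 at 1.39, Maff at 1.65 and Nr4a1 at -1.61. Of 23 survival genes 3 were higher, Bcl2l1 at 1.52, Gadd45b at 1.37 and the death-promoting gene Bcl2l11 at 1.16, and 5 lower, whereas 4 were higher and 3 lower with median-ratio scaling. Mcl1, on which neutrophils depend, was at 0.20, with 1328 CPM in Hilpda-high and 1160 CPM in Hilpda-0 neutrophils. Among growth factor signalling genes, 1 of 14 was higher, the interleukin-3 receptor beta chain gene Csf2rb2 at 1.49, and 3 were lower. With median-ratio scaling 1 was higher and 1 lower. For growth factor signalling, the counts on total UMIs lie near the 6.87% higher and 17.7% lower of all genes.

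Ly6g and 11 further genes were named as lower by the same ranking. Lrg1, a secreted glycoprotein of granules, had 564 CPM in Hilpda-high and 1716 CPM in Hilpda-0 neutrophils (log2 ratio -1.60), and the transcription factor gene Cebpd had 246 CPM in Hilpda-high and 769 CPM in Hilpda-0 neutrophils (-1.64). The immune receptor gene Nfam1 was at -1.77, Rgs3 at -2.03, the kinase gene Prkcb at -2.02, the transcription factor gene Nfe2 at -2.24, D1Ertd622e at -2.02, Ppp1r3d at -2.43 and Ipcef1 at -2.58. Ccl5, a T cell chemokine, had 3 UMIs in 3 Hilpda-high and 209 UMIs in 7 Hilpda-0 cells, a log2 ratio of -4.42 (-7.15 to -3.29), and 25.3% of thinned T cells held it. With at least 100 S100a8 and S100a9 UMIs per 10000 it was -2.30. The class II gene H2-Aa came from 6 Hilpda-high and 21 Hilpda-0 cells, at -2.30, and was -1.08 in thinned cells. Values for Ccl5 and H2-Aa therefore rest on a few cells, and the part of other cell types in them was not tested.

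Levels along the amount of Hilpda are given as a description, since Hilpda counts chose the cells. Gated cells were divided at 0, 10, 30 and 60 Hilpda UMIs per 10000 into groups of 1396, 259, 323, 261 and 252 cells. From low to high Hilpda, the hypoxia-induced list held 55.1, 84.5, 122, 180 and 259 UMIs per 10000, and the glycolysis list 134, 179, 225, 314 and 385. Oxidative phosphorylation fell over the same steps, with 196, 188, 178, 142 and 115 UMIs per 10000. These lists moved at every step, below and above the threshold of 30. Glycolysis, from 225 to 314, and oxidative phosphorylation, from 178 to 142, had their largest step across it. The groups differ in their width of Hilpda levels. Cd274 had 0.279, 0.600, 1.45, 2.89 and 5.56 UMIs per 10000, and Pdcd1lg2 had 0.0929, 0.360, 0.812, 2.14 and 3.77. Il1b had 115, 104, 98.7, 71.2 and 36.6 UMIs per 10000, with its largest step, from 71.2 to 36.6, above the threshold. Of 24 lists, taken as summed UMIs, 9 rose at every step, 4 fell at every step and 11 were mixed. A sum follows its abundant members and can differ from the median of the list. The metabolite-sensing receptor list rose at every step, with 2423 of its 2697 Hilpda-high UMIs from Hcar2 and a median log2 ratio of -0.72. The survival list also rose at every step, with a median of -0.46.

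**Figure D5:**
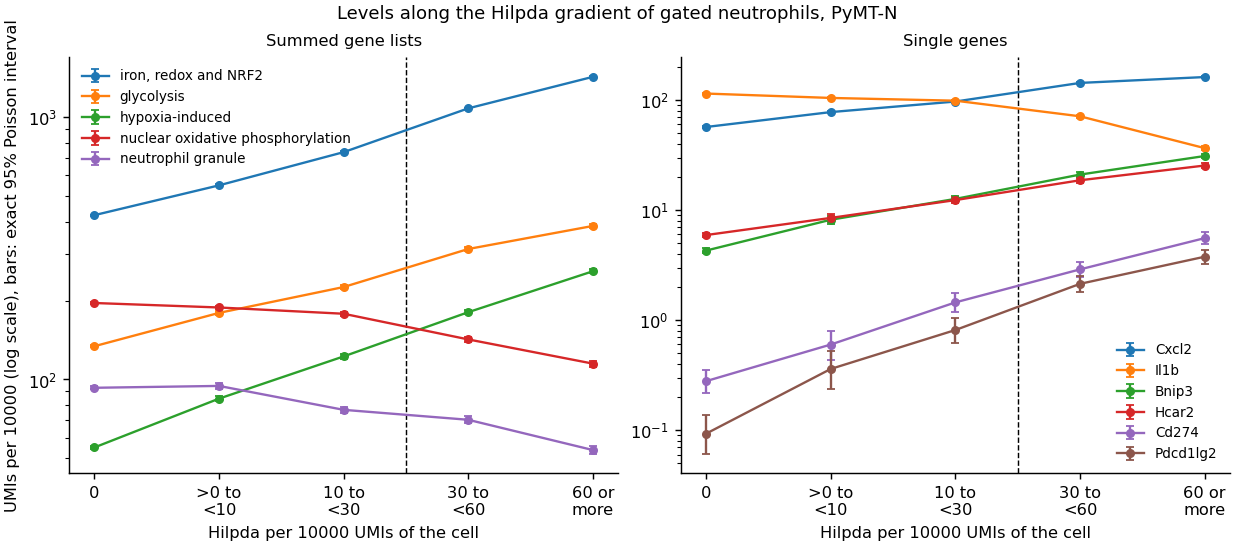
Summed UMIs per 10000 (y axes, log scale, with exact 95% Poisson intervals) of 5 gene lists (left) and 6 single genes (right) in gated PyMT-N neutrophils grouped by Hilpda UMIs per 10000 (x axes, low to high), with the dashed line at the threshold of 30. The hypoxia-induced list goes through 55.1, 84.5, 122, 180 and 259 per 10000 from left to right, while Il1b goes through 115, 104, 98.7, 71.2 and 36.6.

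The gene with the highest rank correlation with Hilpda across gated cells was Fth1. It was seen in 100% of the thinned cells, and Ero1l, which ranked 2, in 34.5%. The part of detection in this order was not tested. Of the first 10, 2 are ferritin genes, 4 are in the hypoxia-induced list, 2 in the glycolysis list, and Bsg and Basp1 in none of these. Spearman correlations over 2348 cells thinned to 1000 UMIs, among 2240 genes seen in at least 5% of them, are given as a description, since all points share 1 library. The highest was 0.528 for Fth1, followed by Ero1l at 0.498, Bnip3 at 0.470, Gapdh at 0.466, Fam162a at 0.462, Ftl1 and Ldha both at 0.441, Bsg at 0.440, Mif at 0.418 and Basp1 at 0.413. Bsg, which encodes the chaperone of lactate transporters, had 2211 CPM in Hilpda-high and 433 CPM in Hilpda-0 neutrophils, and Basp1, a membrane-bound signalling protein, had 912 CPM in Hilpda-high and 111 CPM in Hilpda-0 neutrophils. Hcar2 ranked 20 with 0.365. Within the 486 thinned Hilpda-high cells the same 10 genes had correlations of 0.079 to 0.276. The gene with the lowest value over all gated cells was the actin-binding Tmsb4x at -0.467, followed by Pfn1 at -0.396 and Il1b at -0.375.

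The same gates were applied to the PyMT-M library, which took no part in choosing the members. They kept 29 of 7476 barcodes, of which 2 were Hilpda-high, 6.90% with an interval of 0.846 to 22.8%, and 27 were Hilpda-0. In those cells, the hypoxia-induced list held 193 UMIs per 10000 (148 to 248) in the 2 Hilpda-high and 16.4 (12.95 to 20.4) in the 27 Hilpda-0 cells. Bnip3 had 31.7 per 10000 (15.2 to 58.3) in Hilpda-high and 1.04 (0.336 to 2.42) in Hilpda-0 cells. Fth1 had 913 per 10000 in Hilpda-high and 206 in Hilpda-0 cells, and the glycolysis list had 317 in Hilpda-high and 67.5 in Hilpda-0 cells. The 2 Hilpda-high cells held 3156 UMIs together, too few to compare the lines, and the interval of their share includes the 20.6% of PyMT-N.

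To see whether other cells of the library showed the same pattern, the split was made in C1q-positive cells of the PyMT-N library, which have 3 or more C1q UMIs and under 50 S100a8 and S100a9 UMIs per 10000, and which the neutrophil gates left out. Of 699 such cells, 42 had at least 10 Hilpda UMIs per 10000 (median depth 5526.5 UMIs) and 524 had 0 (median 4429). Of 5274 genes measured in them, 6.05% were at least 2-fold higher and 24.3% at least 2-fold lower in the cells with Hilpda. Of 23 measured hypoxia-induced genes 18 were higher and 0 lower, with a median log2 ratio of 2.04, and of 17 glycolysis genes 14 were higher and 1 lower, with a median of 1.38. Bnip3 had 863 CPM in cells with Hilpda and 97.7 CPM in cells without, and Fth1 had a log2 ratio of 1.81 (1.78 to 1.84). The part of neutrophil RNA or doublets in these values was not tested.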

How the data were processed

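Per the labels, immune cells of mouse mammary tumours were sorted and sequenced with the 10x Genomics 5′ method. The authors deposited raw UMI counts per gene and barcode for each library, not normalised. Cell Ranger, Seurat and build mm10 are named per the submitters' processing notes, without versions in the sources used. Software version 3.1.0 wrote the matrices, per the file headers. The authors' own clusters and cell names were not used here.

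UMIs were summed over the cells of each group and given as CPM. Log2 ratios used a pseudocount of 1 CPM, and their intervals are exact conditional binomial ones without it. Levels have exact Poisson and shares exact Clopper-Pearson intervals, all at 95%. Shares of cells and correlations used cells of 1000 or more UMIs thinned to 1000, which left out 27 Hilpda-high and 95 Hilpda-0 cells. T cells used as background had 2 or more Cd3 UMIs and lay outside the neutrophil and C1q gates. The library totals were 14907736 UMIs for PyMT-N (median 1955 per barcode) and 43977988 for PyMT-M (median 5069.5).

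Doublets were not removed, and leaving out the cells of highest Scrublet score was an alternative. Genes named as leading were up to 15 higher and 12 lower, with 50 or more UMIs over both groups and 50 or more CPM in the higher group, outside the gates and without predicted, haemoglobin, mitochondrial, ribosomal protein and antigen receptor genes. They were ranked by the end of the interval nearest to no difference. From each list up to 4 members were named by level and by ratio, and other members were chosen after their values were seen. The members of the cell set, the markers Bnip3 and Hcar2, the threshold and the 24 gene lists were chosen with earlier results of these data known. Gene positions come from the GENCODE annotation of GRCm38, matched by gene identifier. Python 3.11.15, numpy 2.4.6, scipy 1.17.1, pandas 2.3.3, scanpy 1.11.5, anndata 0.12.19 and matplotlib 3.10.9 were used, and the ratio statistics were tested on simulated data. The alternatives changed the filters on cells, the Hilpda threshold, the gates, the comparison group, the scaling, the pseudocount and the minimum of UMIs.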

Additional observations from a re-analysis of the deposited data

How the results depend on the processing

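Of 17 alternatives, the scaling without Fth1 and Ftl1 was chosen after seeing the data, and the other minimums of UMIs were not run for single genes. Across the other 15, the 15 genes named as higher and the 12 named as lower stayed past 2-fold in the same direction. The ranking by interval ends used the same cells and favours this outcome, so it is a description. Hypoxia-induced and glycolysis were the lists with a median past 2-fold in each of the 16 alternatives run for list medians, which leave out the minimum of 100 UMIs. No paired analysis was possible because there is 1 library per line and the labels carry no replicate numbers. The Hilpda-high share was 19.0% with at least 500 genes, 25.9% with a threshold of 20 and 12.8% with a threshold of 50 Hilpda UMIs per 10000. Higher genes numbered 585 and lower genes 439 with median-ratio scaling, and lower genes 486 with a pseudocount of 10 CPM, 1512 with a minimum of 20 UMIs and 607 with a minimum of 100. The log2 ratio of the summed hypoxia-induced list, 1.97, and that of glycolysis, 1.37, were 1.86 and 1.27 with the threshold at 20, 2.14 and 1.46 at 50, and 1.57 and 1.13 against all gated cells under 30. They were 1.93 and 1.33 with at least 100 S100a8 and S100a9 UMIs per 10000, 2.30 and 1.71 with median-ratio scaling, 1.88 and 1.28 without mitochondrial, ribosomal, S100a8 and S100a9 UMIs, and 2.09 and 1.49 without ferritin. Glycolysis alone moved to 1.39 without the cells of highest Scrublet score, 1.40 in thinned cells and 1.40 as a mean over cells. Thresholds and comparison groups change these values by their construction, and for the other moves the cause was not tested. Of 1530 values of single genes 1189 moved by less than their counting interval, 340 moved by more, and 1 of a gene past 2-fold changed sign, Cxcl10, at -0.27 without the interferon gate. Of genes within 2-fold, Ptgs2, Slpi, Lcn2, B2m and mt-Co1 changed sign under 1 to 5 alternatives each. The lists of lipid droplet, cytokine, NF-kappaB and heat-shock genes, with medians of -0.00 to 0.19, changed sign under at least 1 alternative. Depth limits genes under about 50 UMIs, and 1 library leaves variation between animals unmeasured.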

Other observations

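In the C1q-positive cells of the PyMT-N library with and without Hilpda, single genes had levels of their own. Gpnmb had 402 CPM in C1q-positive cells with Hilpda and 16.5 CPM in those without, a log2 ratio of 4.52 (4.07 to 5.16). Cd274 had 131 CPM in C1q-positive cells with Hilpda and 10.8 CPM in those without, and Adm had 106 CPM in those with Hilpda and 10.8 CPM in those without. Of the 15 genes named as higher in neutrophils, 6 were measured in C1q-positive cells and 6 were higher, with a median of 2.74. This count is partly set by the limit of 50 UMIs over both groups. Gpnmb, Adm and Cd274 had 43, 28 and 28 UMIs in cells without Hilpda, and passed it only with those of cells with Hilpda. Nceh1, F10 and Ifrd1 passed it on cells without Hilpda alone, and had log2 ratios of 1.09, 1.51 and 2.29. Cxcl3 had 0 UMIs in C1q-positive cells with Hilpda and 7 UMIs in those without. Il1b had a log2 ratio of -0.07 (-0.32 to 0.16) in C1q-positive cells and -1.04 in neutrophils, and Cxcl2 had 0.62 (0.37 to 0.85) in C1q-positive cells and 1.41 in neutrophils. Whether these ratios differ between the cell types was not tested, since each rests on 1 library. The summed lipid droplet list had a log2 ratio of 1.89 in C1q-positive cells and 0.15 in neutrophils. Such sums follow abundant members, and G0s2 had 2742 CPM in Hilpda-0 neutrophils against 275 CPM for Plin2. G0s2 had a log2 ratio of 5.08 in C1q-positive cells and -0.71 in neutrophils. Of other RNAs abundant in the neutrophils, Slpi was at 3.85 and Ifitm1 at 2.58 in C1q-positive cells. Wfdc17 was at -1.04 and S100a6 at -0.92 in those cells. The part of neutrophil RNA or doublets in the values of C1q-positive cells was not tested. Plin2 was at 2.20 in C1q-positive cells and 2.53 in neutrophils, and Plin3 at -0.58 in C1q-positive cells and 1.56 in neutrophils.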
